A study of Mus musculus with 10 samples.

Results

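The genes described here encode potassium channels and the subunits that join them. They were all protein-coding mouse genes whose symbol starts with Kcn and whose mean over 10 libraries reached at least 10 normalized counts (reads divided by a scaling factor for each library). Of 94 such genes in the table, 82 passed that level and 12 did not, and the 82 stand among 17007 genes tested. Kcnn4 was just above that level, with a mean of 10.7, and Kcne3 just below it at 6.32, while Kcnj1 and Kcnk16 were at 0 in every library. The 82 fall into 21 subfamilies. The tissue was microdissected dentate gyrus, a hippocampal region built around its granule neurons, from C57Bl/6 mice aged 8 weeks. All mice received adeno-associated virus of serotype 9 in the gyrus of each side. In 5 of them the virus encoded GFP (green fluorescent protein) and in the other 5 Sox11, a SoxC transcription factor of newborn neurons, so the comparison holds injection and virus in common. Which promoter drove the viral genes, and which cells took up the virus, is not given in the sources used here. Libraries carry the numbers of the table's columns, GFP 1, 3, 4, 5 and 6 and Sox11 1, 2, 3, 6 and 7.

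Potassium channels let potassium leave a cell and so pull its membrane back towards rest. The voltage-gated families repolarize the action potential and set how fast a neuron can fire, the leak and inward-rectifier families hold the resting potential, and the calcium-activated families shape the afterhyperpolarization. Some Kcn genes encode no channel that works alone: the silent subunits join Kcnb pores, and the Kcnip, Kcnab, Kcnmb and Kcne proteins bind pores and change their gating or traffic. Mature granule neurons rest at a very negative potential and fire sparsely, whereas newborn ones have a high input resistance.

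The upstream sequence of 4 members past the test's threshold is shown because Sox proteins bind short DNA cores. Each is the 250 bases before a RefSeq transcript start (GRCm38.p6, 5′ to 3′ on the gene's strand), the most upstream start in the table for each gene, and none of the 4 overlaps a GENCODE M21 exon. Capitals mark a match to ACAAAG or ACAATG on either strand.
Kcnf1 (chr12:17176889-17177138, minus strand): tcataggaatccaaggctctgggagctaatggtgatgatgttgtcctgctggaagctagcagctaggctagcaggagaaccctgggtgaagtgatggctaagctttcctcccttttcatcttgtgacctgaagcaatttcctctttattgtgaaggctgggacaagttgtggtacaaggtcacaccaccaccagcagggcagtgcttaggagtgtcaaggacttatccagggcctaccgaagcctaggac
Kcnc2 (chr10:112269767-112270016, plus strand): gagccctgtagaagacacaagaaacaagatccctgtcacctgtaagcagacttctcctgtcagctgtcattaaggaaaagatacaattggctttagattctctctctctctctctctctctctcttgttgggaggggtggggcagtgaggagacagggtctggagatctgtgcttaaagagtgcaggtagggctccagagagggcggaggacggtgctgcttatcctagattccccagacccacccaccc
Kcnk4 (chr19:6934516-6934765, minus strand): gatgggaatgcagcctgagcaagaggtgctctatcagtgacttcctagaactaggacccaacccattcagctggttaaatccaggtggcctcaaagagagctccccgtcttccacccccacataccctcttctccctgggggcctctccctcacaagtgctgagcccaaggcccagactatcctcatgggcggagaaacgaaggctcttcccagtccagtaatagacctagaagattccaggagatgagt
Kcnt2 (chr1:140245468-140245717, plus strand): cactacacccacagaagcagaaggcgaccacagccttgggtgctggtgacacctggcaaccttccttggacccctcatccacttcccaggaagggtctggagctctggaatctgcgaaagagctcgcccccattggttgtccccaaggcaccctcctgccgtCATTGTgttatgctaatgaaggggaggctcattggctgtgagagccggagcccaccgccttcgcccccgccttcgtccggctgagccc
Kcnt2 held 1 match, CATTGT from base 163, which is ACAATG read on the other strand, and the windows of Kcnf1, Kcnc2 and Kcnk4 held none. Over all 82 members, 59 had a window of 300 bases (250 before to 50 after a start) in the RefSeq table, 83 windows in all, and 15 of the 59 held a match. The share of windows with a match was 20.5% for the members and 28.6% for all 32851 windows in the table, whose median GC content was 52.7% against 59.7% for the members. A match was present for 1 of 2 members higher after Sox11, 3 of 12 lower and 11 of 45 not called. These are counts of letters and show no binding.

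Between 45100154 and 68769808 reads per library were recovered from the table. Sox11 itself read 1429 ± 115 normalized counts under GFP and 12559 ± 4449 under Sox11 (mean ± SD, n = 5 mice each, as for every such pair of values here), and the groups did not overlap. Granule neuron markers were present in every library. Their summed level ran from 59447 to 84308 in GFP and 65194 to 91702 in Sox11 libraries. By the test below 2 of 8 were higher and 2 lower (25% each, against 9.65% and 9.36% of all genes). Of 10 immature neuron markers 6 were higher (60%, against 9.65% of all genes) and none lower. Their sums did not overlap (22718 to 29716 against 50088 to 68083). GFP 3 stood apart with 12 choroid plexus markers summing to 577810, against 4405 to 9554 in the other 9 libraries. The sums of 7 habenula markers, chosen after their values were seen, were highest in Sox11 1, GFP 3 and GFP 1 (4858, 1437 and 1146, against 65.6 to 261 elsewhere). In GFP 3 most of that sum was 1 gene, Chrnb4 (1302). Its Tac2 (57.6), Chat (0), Pou4f1 (4.61) and Slc5a7 (27.6) were not raised. Its Chrnb3 (36.9) and Slc18a3 (9.21) were low, but above every library other than Sox11 1 and GFP 1 (up to 12.9 and 2.08). No marker of the choroid plexus, habenula, CA1 pyramidal, oligodendrocyte, oligodendrocyte precursor, endothelial or mural lists was called by the test below. Of 7 microglia markers 1 was higher (C1qb, 14.3%, against 9.65% of all genes).

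Potassium channel genes were more often lower than higher after Sox11. By limma on log2(normalized count + 1), with Benjamini-Hochberg adjustment over all 17007 genes and a threshold of 0.05, 17 of 82 members fell (20.7%) and 3 rose (3.66%), against 9.36% of all genes lower and 9.65% higher. The remaining 62 were not called. The difference, Sox11 minus GFP, was negative for 56 of 82 members (68.3%) and for 51.5% of all genes, and its median was -0.13 for the members and -0.01 for all genes on the log2 scale. By class the median was -0.22 for inward rectifiers, -0.15 for voltage-gated pores, -0.13 for the K2P (2-pore-domain) leak channels, -0.08 for silent subunits and for auxiliary subunits, and -0.01 for channels gated by calcium, sodium or pH. The changes were modest: none of the 20 called members reached 1 on that scale and their median size was 0.42. In 11 members (13.4%), all of them called, the values of the GFP and Sox11 groups did not overlap, against 15.9% of all genes. At an unadjusted p under 0.05 there were 24 lower and 6 higher members. The share of all genes at an unadjusted p was not computed, so such counts, here and below, have no background beside them. Of 41 members with a mean above the members' median of 1459 normalized counts 12 fell (29.3%) and 2 rose (4.88%). Of the 41 at or below it 5 fell (12.2%) and 1 rose (2.44%). All genes were not split by level, so the members were not compared with genes of like level. Without GFP 1, GFP 3 and Sox11 1, a choice made after seeing the data, 16 members were lower and 3 higher, and 16 of the 20 kept their call. Leaving out GFP 5 or GFP 6 gave 11 lower members, and leaving out GFP 6 or Sox11 2 gave 5 higher. Below, a signed value with an SE in parentheses is a log2 fold change, Sox11 minus GFP, and a pair of means gives GFP first. As these are bulk tissue libraries, fewer cells of a type and less RNA per cell cannot be told apart.

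**Figure D1:**
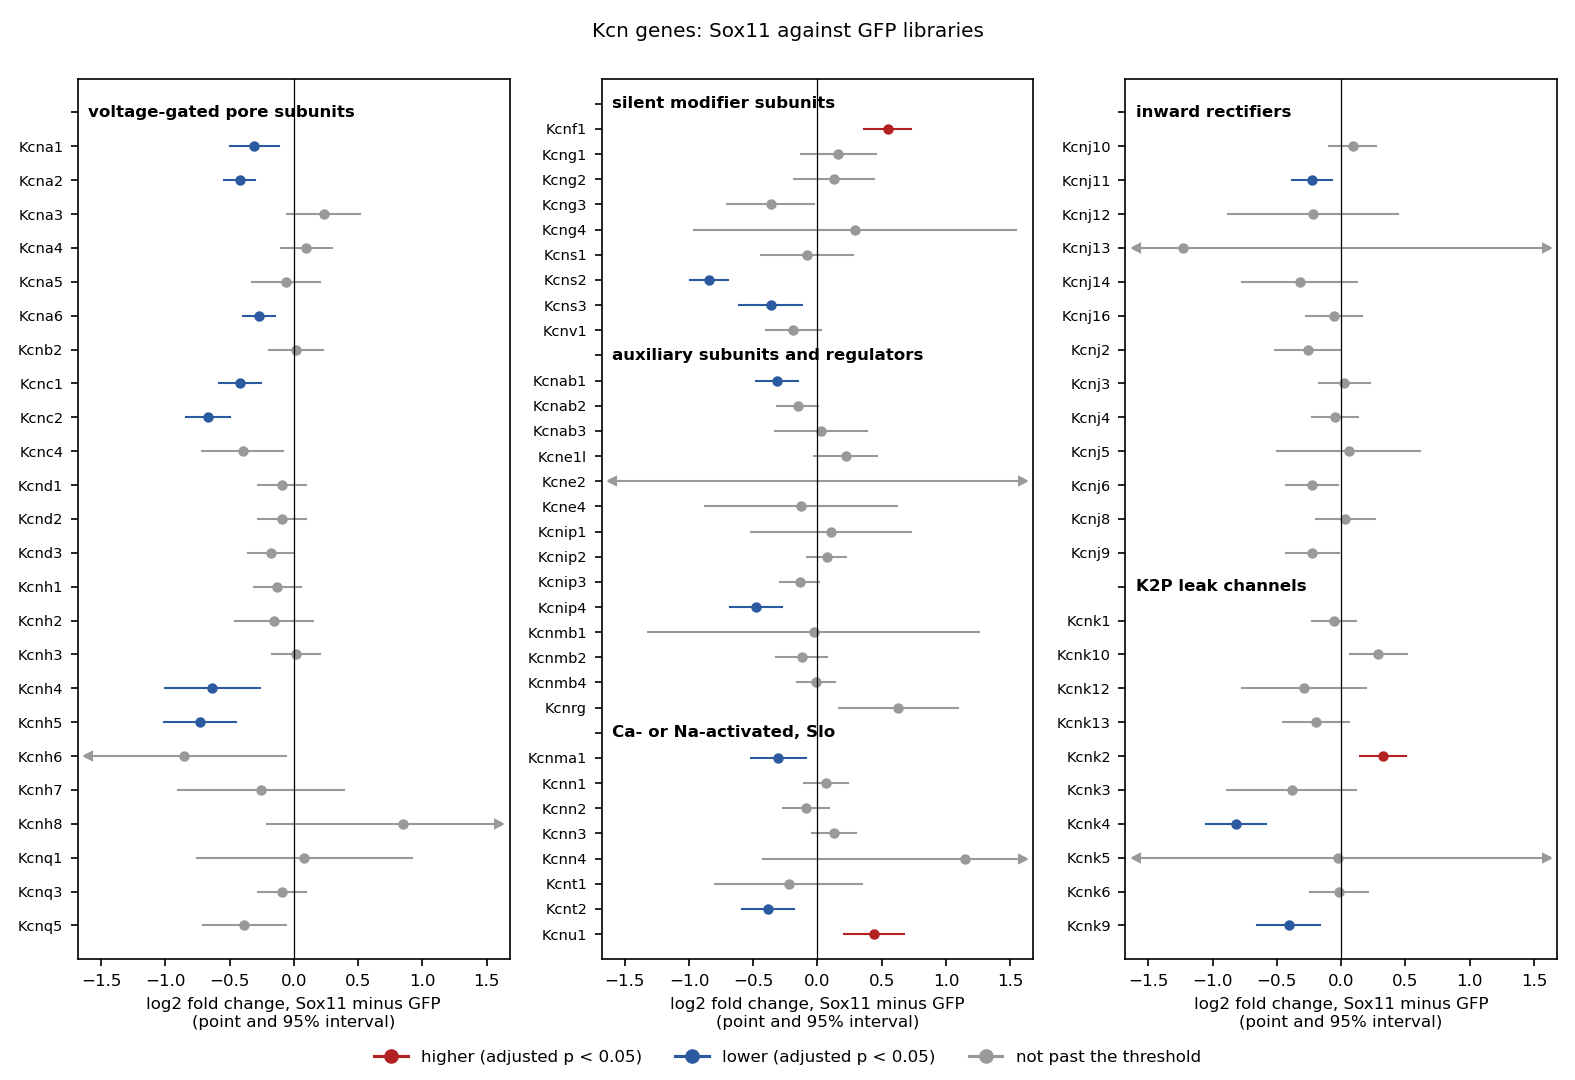
Log2 fold change (Sox11 minus GFP, horizontal axis) of 78 of the 82 potassium channel genes, in blocks by class, with points for the limma estimate and bars for its 95% interval. Called genes lie mostly left of 0 (16 lower and 3 higher of those drawn); intervals past the axis end in arrowheads, and Kcne2's point at -2.01 lies outside.

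Voltage-gated pore subunits gave 8 of the 17 decreases: of 28 tested, 8 fell (28.6%, against 9.36% of all genes) and none rose (9.65% of all genes). At an unadjusted p under 0.05 there were 11 lower and 1 higher, with no share of all genes computed at that p. The groups did not overlap in 6 (21.4%, against 15.9% of all genes), each of them among the 8 that fell, where the exceptions were Kcna1 and Kcnh4. The other classes hold 8 to 14 members each, so that 1 call moves their share by several percentage points.

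The Shaker-related genes Kcna1, Kcna2 and Kcna6 encode low-threshold channels of axons and terminals. Kcna2 (chromosome 3, 107101146 to 107115005, plus strand, GRCm38) was at 10781, 11122, 12008, 10879 and 11314 normalized counts in GFP 1, 3, 4, 5 and 6 and at 8802, 8282, 7620.2, 9134 and 8118 in Sox11 1, 2, 3, 6 and 7. Every GFP library lay above every Sox11 library. Its log2 fold change was -0.42 (SE 0.06), limma adjusted p = 5.32e-04. Kcna6 went from 3938 ± 278 to 3265 ± 159 normalized counts, again with no overlap (-0.27, SE 0.06, limma adjusted p = 0.00705). Of its exonic bases, 39.6% are overlapped by Gm26673 on the other strand. The same holds for 49.1% of Kcnj13, 31.5% of Kcnmb4 and 31.1% of Kcnj3 with other genes, and the strand setting of the counting is not given in the sources used here. Kcna1, the most abundant of the subfamily per kilobase, went from 5119 ± 559 to 4138 ± 438 (-0.31, SE 0.09, limma adjusted p = 0.0308). Here the groups overlapped, and the call was lost without any 1 of GFP 4, 5 and 6 and Sox11 1, 2 and 3 (limma adjusted p then 0.0641 to 0.0727). The other 3 members, Kcna3, Kcna4 and Kcna5, were not called, with log2 fold changes of 0.23, 0.10 and -0.06.

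The Shaw-related Kcnc genes encode high-threshold channels that close quickly and allow fast repetitive firing. Kcnc1 and Kcnc2 fell. Kcnc2 (chromosome 10, 112271121 to 112467024, plus strand) showed the larger drop: 5281, 5379, 5675, 5299.5 and 5987 normalized counts in GFP against 3449.8, 3688, 4136, 3104 and 3119 in Sox11 libraries. The groups lay apart, with Sox11 3 the highest Sox11 library and GFP 1 the lowest GFP library. Kcnc2's log2 fold change was -0.67 (SE 0.08), limma adjusted p = 2.70e-04. Kcnc1 (chromosome 7, 46396497 to 46438704, plus strand) was at 10416, 9987, 10504, 12604 and 12156 in GFP and 8108, 8129.6, 9228, 8387 and 7641 in Sox11 libraries, also with no overlap (-0.42, SE 0.07, limma adjusted p = 0.00283). Kcnc4 came to -0.40 (SE 0.14) with a limma adjusted p = 0.0809, and passed the threshold without GFP 3 (adjusted p = 0.0218).

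Kcnc1 and Kcnc2 are known from fast-spiking interneurons, and some markers of neurons other than granule neurons were also lower. Of 13 GABA interneuron markers 3 were lower (23.1%, against 9.36% of all genes), namely Gad2, Npy and Lamp5, and none higher (9.65% of all genes). Summed levels were 59306 to 71219.5 in GFP and 47966 to 61064 in Sox11 libraries, which overlap. The median log2 fold change of that list was -0.20. Pvalb, the defining marker of fast-spiking interneurons, was at 700.5 ± 88.2 and 597 ± 168 normalized counts (-0.26, SE 0.17, limma adjusted p = 0.326). Of 6 CA3 pyramidal markers 2 were lower (33.3%), namely Nptx1 and Elavl2, and none higher, with a median of 0.04. Their sums did not overlap (70669.9 to 99136 against 59138 to 69378), but Nptx1 made up most of them, and without it, a choice made after the values were seen, they overlapped (19594 to 25763 against 21388 to 25452). Of 6 mossy cell markers 3 were lower (50%), namely Ociad2, Ajap1 and Nmb, and none higher. Their median was -0.29 and their sums did not overlap (6650.3 to 7937 against 4899 to 5972). In lists this short 1 call moves the share by many percentage points. None of 6 CA1 pyramidal markers was called (median -0.08). Of 8 granule neuron markers C1ql2 and Plk5 were lower and Rfx3 and Lct higher, with a median of 0.13. No GABA interneuron, CA3 or mossy cell marker was at 0 in any library, and their part in the lower channel genes was not tested.

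**Figure D2:**
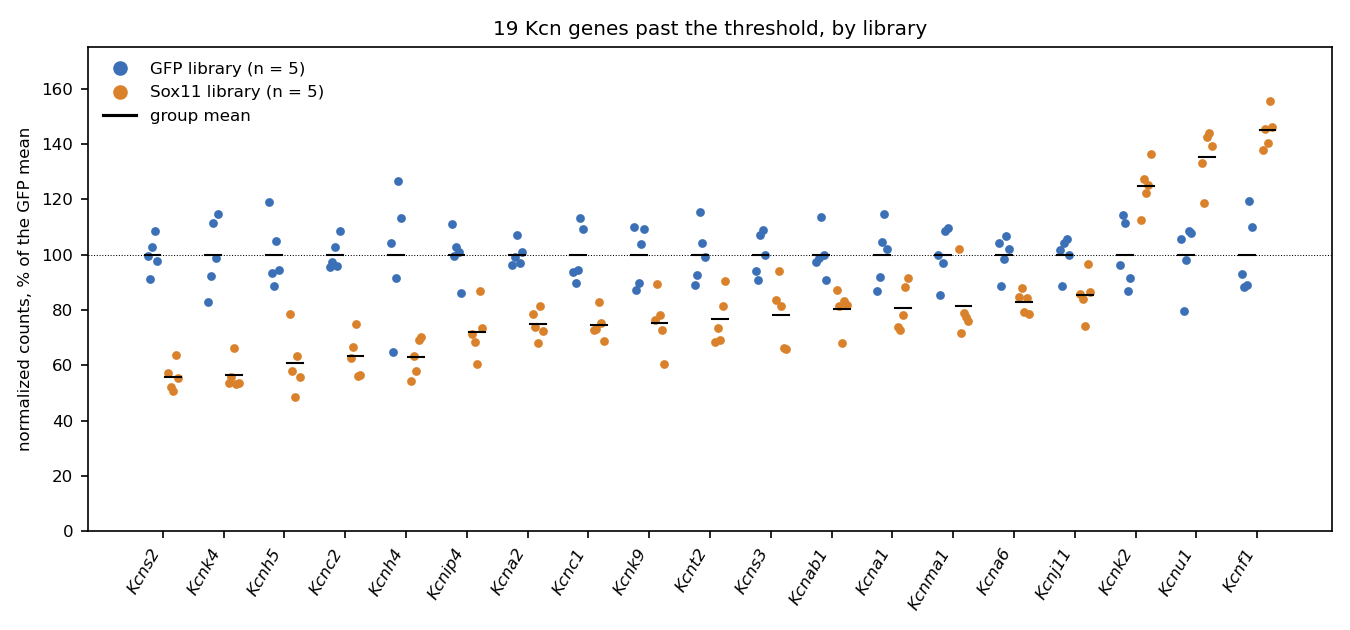
Normalized counts of 19 of the 20 called potassium channel genes as a percent of each gene's GFP mean, with a point for each of the 5 GFP and 5 Sox11 libraries and a line at each group's mean. In 10 of the 19 genes drawn the GFP and Sox11 points do not overlap; Kcnf1, Kcnk2 and Kcnu1 are the 3 with higher Sox11 values.

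The Shal-related Kcnd genes encode the A-type current of dendrites, and none of the 3 was called by limma, edgeR, DESeq2 or limma-voom. None had an unadjusted p under 0.05 by limma, though no share of all genes was computed at that p. Kcnd2, the most abundant, was at 9100.4 ± 723 and 8572 ± 1002 normalized counts, with a 95% interval of the log2 fold change from -0.28 to 0.09. That of Kcnd3 ran from -0.36 to 0.00, and Kcnd3 passed the threshold without GFP 3 (limma adjusted p = 0.0455). Both intervals leave room for a decrease of about the size seen in Kcna6.

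Several Kcnq genes encode subunits of the M-channel, a slow brake on repetitive firing. In this subfamily of 5, limma, edgeR and limma-voom called none and DESeq2 called 2. At an unadjusted p under 0.05 limma had 1 higher and 1 lower, with no share of all genes computed at that p. Kcnq3 was at 16527 ± 1228 and 15598 ± 1990 normalized counts (interval -0.28 to 0.10). Kcnq5 missed limma's threshold (-0.38, SE 0.14, adjusted p = 0.0925) and passed that of DESeq2. Kcnq1, a channel better known from heart and epithelia, was near the filter at 19.0 ± 3.90 and 23.1 ± 15.4.

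The ether-à-go-go-related Kcnh genes encode channels of which several open near the resting potential. Of 8, 2 fell (25%, against 9.36% of all genes) and none rose. Kcnh5 (chromosome 12, 74897220 to 75177332, minus strand) was at 533, 418, 397, 469.7 and 424 normalized counts in GFP libraries and 352, 259, 218, 284 and 249.8 in Sox11 libraries. The groups did not overlap, and the log2 fold change was -0.73 (SE 0.13), limma adjusted p = 0.00263. Kcnh4 was lower still in level, at 199 ± 46.8 against 125 ± 13.6. GFP 3, at 129, lay within the Sox11 range of 108 to 139.7. Kcnh4 fell (-0.63, SE 0.17, limma adjusted p = 0.0222), and lost the call without any 1 of GFP 5 and 6 and Sox11 1 and 3 (adjusted p then 0.0521 to 0.0541). The 2 most abundant per kilobase, Kcnh3 and Kcnh1, were not called (0.02 and -0.13).

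The silent subunits gave both the largest decrease and the largest increase among the called members. Kcns2 (chromosome 15, 34837355 to 34843407, plus strand) read 2660.3, 2442, 2752, 2903 and 2614 normalized counts in GFP 1, 3, 4, 5 and 6 and 1531, 1391, 1354, 1706 and 1479.6 in Sox11 1, 2, 3, 6 and 7. No library of one group came near the other. Its log2 fold change was -0.84 (SE 0.07), limma adjusted p = 2.40e-05, a change of the mean by -44.2%. Kcnf1 (chromosome 12, 17172100 to 17176888, minus strand) read 3947, 3748, 3772, 5069 and 4670 in GFP and 5843, 6165, 5954, 6602 and 6191 in Sox11 libraries. It lay higher in every Sox11 library than in any GFP library, with a log2 fold change of 0.55 (SE 0.08) and limma adjusted p = 0.00125.

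Both proteins are partners of Kcnb pores, so their levels were also set against each other, per kilobase of merged exons and with no test. Kcnf1 exceeded Kcns2 by 1.85 ± 0.206 times in GFP libraries (1.60 to 2.08) and by 4.83 ± 0.336 times in Sox11 libraries (4.45 to 5.17). Kcnf1 was higher and Kcns2 lower in every Sox11 library than in any GFP library, so these ratios could not overlap between the groups. They restate the 2 changes and are not a further result.

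**Figure D3:**
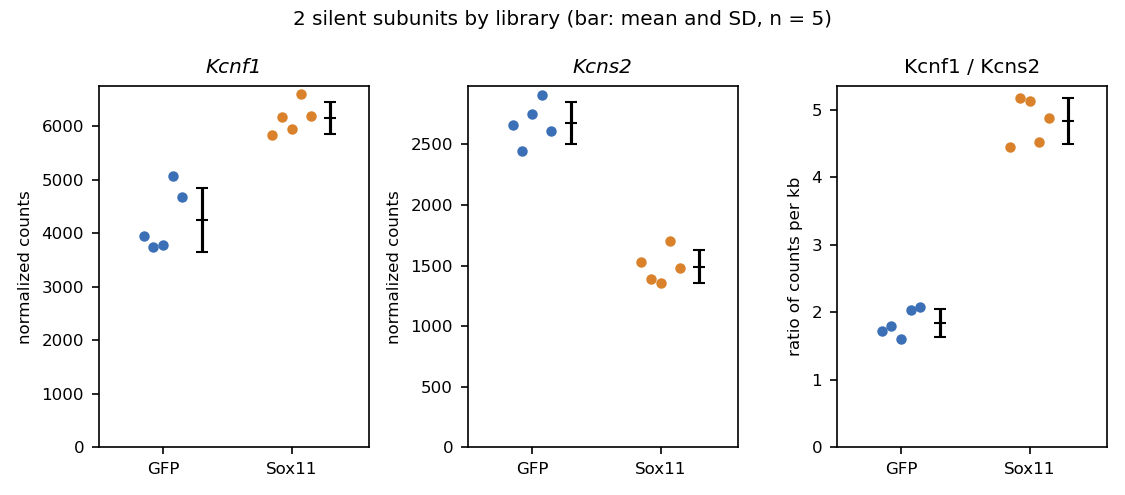
Normalized counts of Kcnf1 and Kcns2, and the ratio of Kcnf1 to Kcns2 in counts per kilobase, by group, with 1 point per library and bars for the mean and SD (n = 5). Kcnf1 over Kcns2 lies between 1.60 and 2.08 in GFP and between 4.45 and 5.17 in Sox11 libraries.

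Kcns3 went from 340.4 ± 26.8 to 266 ± 41.0 normalized counts (-0.36, SE 0.11, limma adjusted p = 0.0398), with overlapping groups. That call was lost without any 1 of GFP 1, 4, 5 and 6 and Sox11 1, 3, 6 and 7 (adjusted p then 0.0534 to 0.0916). Kcns1 was not called (-0.08, SE 0.16), and the share of Kcns2 in its subfamily per kilobase went from 58.5% ± 3.38 to 46.9% ± 3.48. The 4 Kcng genes and Kcnv1, the remaining silent subunits, were not called by limma, edgeR, DESeq2 or limma-voom. Kcng1 and Kcng2, the abundant ones, had small positive differences (0.16 and 0.13), Kcng3 a negative one with the lowest p of the subfamily (-0.36, SE 0.15, limma adjusted p = 0.125), and Kcnv1 -0.19 (SE 0.10).

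Of the 14 auxiliary subunits and regulators, 2 fell (14.3%, against 9.36% of all genes) and none rose. Kcnip4, a calcium-binding partner of Kcnd channels (chromosome 5, 48389502 to 49524907, minus strand), was at 4327, 3875, 4004, 3934 and 3366 normalized counts in GFP and 2788, 2675, 2356, 3389 and 2870.3 in Sox11 libraries. Only Sox11 6 reached the lowest GFP library, GFP 6. The log2 fold change was -0.48 (SE 0.09), limma adjusted p = 0.00449. Kcnip2, the most abundant member of the same group, was at 13318 ± 1349.6 and 13955 ± 557 and was not called (interval -0.08 to 0.22), and the ratio of Kcnip4 to Kcnip2 per kilobase went from 0.284 ± 0.0461 to 0.193 ± 0.0249. Kcnip3, also a calcium-binding transcriptional repressor, was not called (-0.14, SE 0.07).

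Kcnab1, a cytoplasmic beta subunit that binds Kcna pores and can speed their inactivation, read 8660.3, 8802, 10109.6, 8893 and 8087 in GFP and 7774, 7246, 6063, 7424 and 7278 in Sox11 libraries. The groups did not overlap, though GFP 6 and Sox11 1 lay close. Its log2 fold change was -0.32 (SE 0.07), limma adjusted p = 0.0127. Kcnab2 had the highest level per kilobase of all members and was not called (-0.15, SE 0.07, interval -0.31 to 0.01). The beta subunits of calcium-activated channels were not called either: Kcnmb4, the neuronal one, was at 2708 ± 262 and 2676 ± 123, and Kcnmb2 had a log2 fold change of -0.12 (SE 0.09). Kcnrg, a regulator at low level, was at 16.1 to 26.0 in GFP and 23.8 to 40.2 in Sox11 libraries (0.63, SE 0.21), and of the fits that left out 1 library it passed the threshold without GFP 6 and without Sox11 2 (limma adjusted p with all libraries 0.0582).

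Among the channels gated by calcium, sodium or alkaline pH, 2 of 8 fell (25%, against 9.36% of all genes) and 1 rose (12.5%, against 9.65%). Kcnt2, a sodium-activated channel, was at 1630.2, 1697, 2112, 1907 and 1815 normalized counts in GFP and 1257, 1346, 1265, 1494 and 1659.5 in Sox11 libraries. Sox11 7 lay above the lowest GFP library, GFP 1, and the other Sox11 libraries lay below all 5. The log2 fold change was -0.39 (SE 0.09), limma adjusted p = 0.0127. Kcnma1, the large-conductance calcium-activated channel, had the weakest of all calls. It read 5769, 4939, 5597, 6270.4 and 6335 in GFP and 5903, 4146, 4567, 4476 and 4402 in Sox11 libraries (-0.30, SE 0.10, limma adjusted p = 0.0492). Sox11 1 stood among the GFP values, and the call was lost without any 1 of GFP 1, 4, 5 and 6 and Sox11 2, 3, 6 and 7 (adjusted p then 0.0818 to 0.109) and by edgeR and limma-voom.

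Kcnu1, the pH-gated relative of Kcnma1 known from sperm, rose from a low level (chromosome 8, 25849623 to 25937939, plus strand). It was at 168, 127, 156, 173 and 171 in GFP and 211, 189, 227, 229 and 221 in Sox11 libraries, with no overlap (0.44, SE 0.11, limma adjusted p = 0.0152). The calcium-activated Kcnn channels, of which the small-conductance ones carry the medium afterhyperpolarization, had no call among 4 by limma, edgeR, DESeq2 or limma-voom. None had an unadjusted p under 0.05 by limma, with no share of all genes computed at that p. Kcnn2, the most abundant, had an interval from -0.27 to 0.09, and Kcnn3 a log2 fold change of 0.13 (SE 0.08). Kcnn4 was at 7.64 ± 7.76 and 13.8 ± 8.04 normalized counts and reached the filter only through 1 library: without Sox11 3, the highest, its mean was 9.35.

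The inward rectifiers, which hold the resting potential, had 1 lower call among 13 (7.69%), near the 9.36% of all genes, and none higher. At an unadjusted p under 0.05 there were 4 lower, with no share of all genes computed at that p. Kcnj11, the pore of the ATP-sensitive channel, was at 2578, 2247, 2642, 2679.8 and 2529 in GFP and 2172, 2130.2, 1881, 2451 and 2196 in Sox11 libraries. The groups overlapped between GFP 3 and Sox11 6. It fell by 0.23 on the log2 scale (SE 0.07, limma adjusted p = 0.043), and lost the call without any 1 of GFP 1, 4, 5 and 6 and Sox11 1, 2, 3 and 7 (adjusted p then 0.0659 to 0.0969). Abcc8, the regulatory subunit of the same channel, was at 2031 ± 176 and 1729 ± 122 and also fell (-0.23, SE 0.07, limma adjusted p = 0.0344).

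The G protein-gated Kcnj3, Kcnj6 and Kcnj9 were not called. Kcnj3 had an interval from -0.17 to 0.22, while Kcnj6 (-0.23, SE 0.09) and Kcnj9 (-0.23, SE 0.09) passed the threshold when GFP 3 was left out. Kcnj4, a strong inward rectifier and the most abundant of the subfamily per kilobase, had a log2 fold change of -0.05 (SE 0.08). Kcnj10, the astrocytic channel that clears potassium, was at 11269 ± 1179 and 11982 ± 1119 (interval -0.09 to 0.27). Of 10 astrocyte markers 4 were higher (40%, against 9.65% of all genes) and none lower, with overlapping sums (270626 to 349425 against 297990 to 376271). Kcnj8, a channel of mural cells, was at 152 ± 8.28 and 157 ± 20.1.

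Of 10 K2P leak channels 2 fell (20%, against 9.36% of all genes) and 1 rose (10%, near the 9.65% of all genes). Kcnk2 and Kcnk4 both encode leak channels opened by membrane stretch and lipids. Kcnk4 (chromosome 19, 6923966 to 6934515, minus strand) was at 329.5, 367, 444, 393 and 457 normalized counts in GFP and 214, 222, 264, 212 and 213 in Sox11 libraries. Every Sox11 library lay below every GFP library. Kcnk4's log2 fold change was -0.82 (SE 0.11), limma adjusted p = 5.18e-04. Its level is uncertain, since 85.3% of its 31-base words occur in no other gene and 13.1% of its exonic bases are shared with Catsperz on the same strand.

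Kcnk2 (chromosome 1, 189207930 to 189402273, minus strand) went the other way, at 2849, 3380.5, 3298, 2568 and 2704 in GFP and 3332, 3772, 3613, 3699 and 4039.8 in Sox11 libraries. Sox11 1 lay below GFP 3 and the other Sox11 libraries above all GFP libraries. Its log2 fold change was 0.32 (SE 0.08), limma adjusted p = 0.0177. Of its exonic bases 12.2% are overlapped by A430027H14Rik on the other strand. Kcnk2 exceeded Kcnk4 per kilobase by 6.81 ± 1.25 times in GFP libraries (5.35 to 8.31) and 14.9 ± 1.81 times in Sox11 libraries (12.4 to 17.2). These ratios restate the 2 changes, are not a further result and rest on the uncertain level of Kcnk4. The third relative, Kcnk10, missed the threshold (0.29, SE 0.10, limma adjusted p = 0.0656).

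Kcnk9, an acid-sensitive leak channel, was at 495, 392, 404, 467 and 490.2 in GFP and 344, 401, 351, 328 and 272 in Sox11 libraries. Sox11 2 overlapped the lowest GFP library. It fell (-0.41, SE 0.11, limma adjusted p = 0.0235) and lost the call without any 1 of GFP 1, 5 and 6 (adjusted p then 0.0536 to 0.0577). Kcnk1, the most abundant of the subfamily, was at 5912 ± 534 and 5696 ± 569.8 and was not called (interval -0.23 to 0.12).

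Levels were compared between members as normalized counts per kilobase in the GFP libraries. The 4 highest were Kcnab2 (6680 ± 573), Kcnip2 (3831 ± 388), Kcnk1 (2645 ± 239) and Kcnj4 (2334 ± 295). Kcnab2 and Kcnip2 stood clear of their neighbours, while the ranges of Kcnk1 and Kcnj4 overlapped. Kcnj10 (2084 ± 218) and Kcnj3 (2056 ± 161) lay below, with ranges that overlapped each other and that of Kcnj4. None of these 6 was called. The highest called members were Kcnc1 (1177 ± 123), Kcnip4 (1076 ± 95.6), Kcna1 (1071 ± 117) and Kcnab1 (1037 ± 86.1), whose ranges overlapped.

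**Figure D4:**
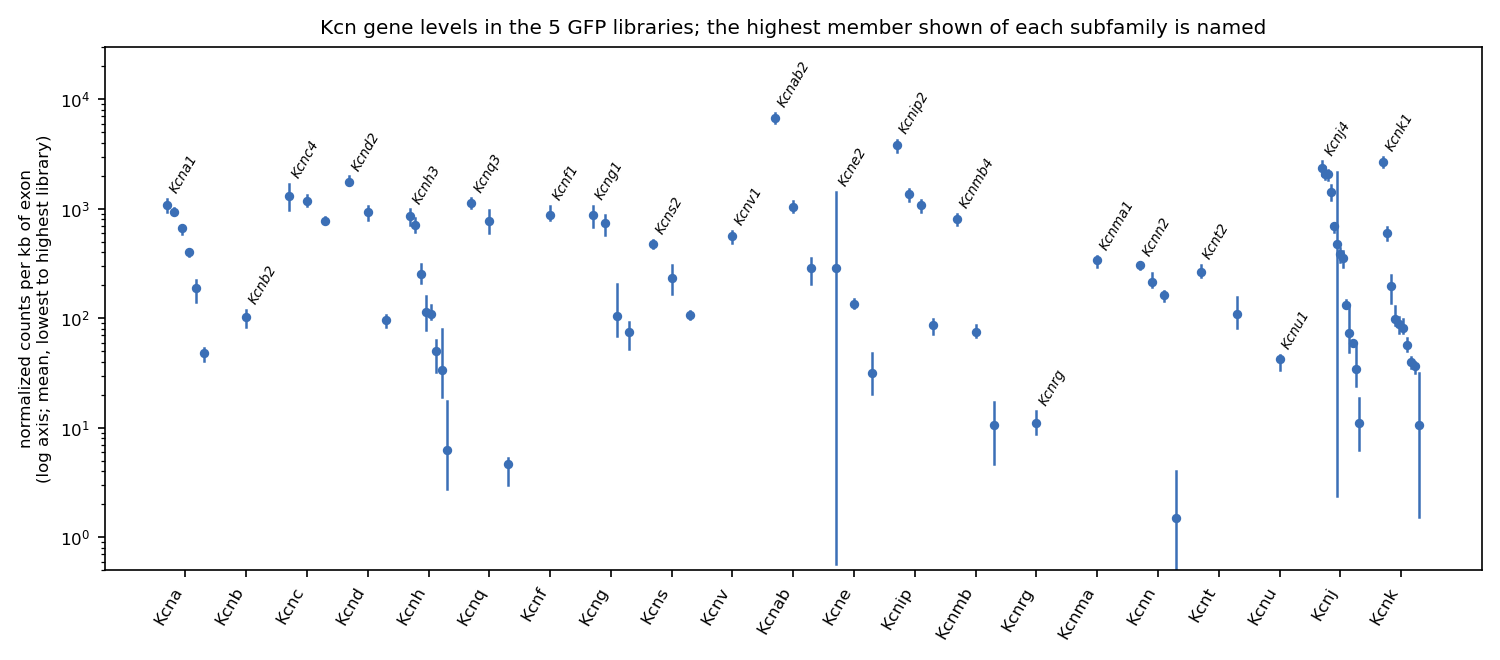
Normalized counts per kilobase of merged exons of 78 members in the GFP libraries, on a log axis, by subfamily, with the point at the mean and the line from the lowest to the highest library. Kcnab2 is highest at 6680; Kcnn4's lowest GFP library is at 0, so its line runs off the axis.

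Some members followed 1 or 2 libraries instead of the groups. Kcne2, a beta subunit of epithelial channels, was at 2533 normalized counts in GFP 3 and at 1.02 to 11.0 in the other 9 libraries, and reached the filter only through GFP 3. Kcnj13, an epithelial inward rectifier, was at 2723 in GFP 3 and at 2.44 to 251 elsewhere. GFP 3 is the library high in choroid plexus markers, and the standard errors of the log2 fold changes were wide, at 1.78 for Kcne2 and 2.02 for Kcnj13. Kcne1l, of the same subfamily as Kcne2, was not called (0.22, SE 0.11). Kcng4 was at 1966 in Sox11 1 and 783 in GFP 1 against 264 to 359 in the other 8, and Kcnip1 at 1273 in Sox11 1 against 398 to 611 elsewhere. Sox11 1 and GFP 1 are libraries high in several habenula markers. GFP 3, whose habenula sum was mostly Chrnb4 with Chrnb3 and Slc18a3 also raised, was among the other 8 for Kcng4. None of the 4 genes was called, and the part of neighbouring tissue in their values was not tested.

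**Figure D5:**
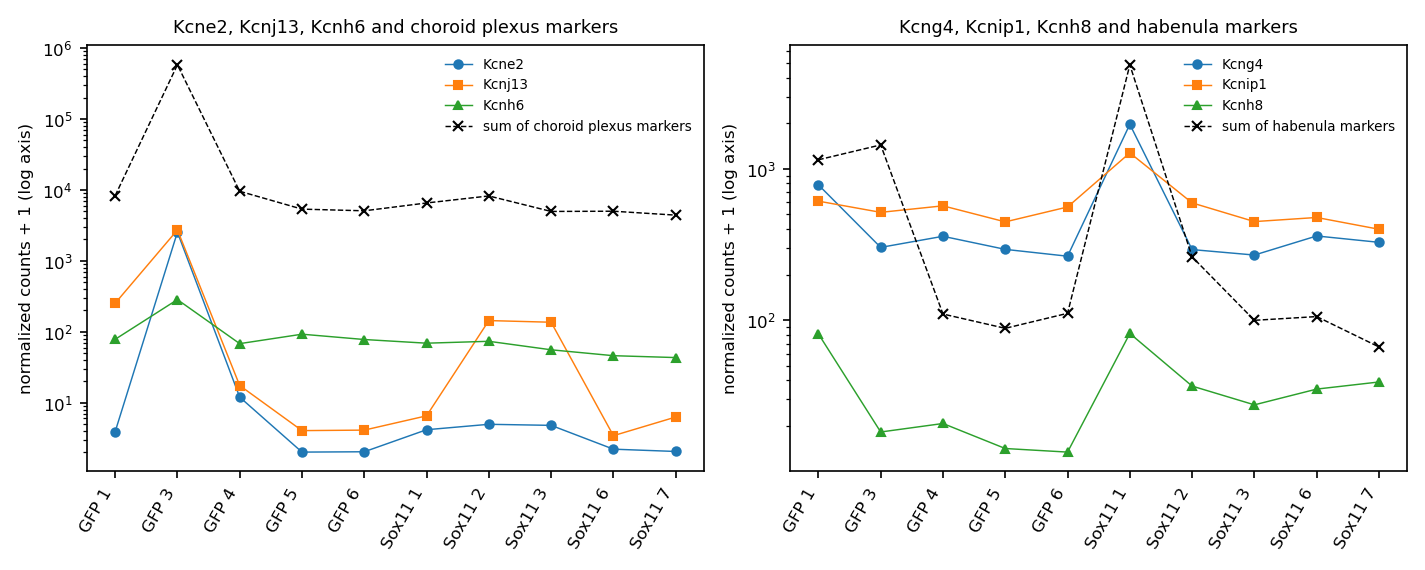
Normalized counts + 1 (log axis) in each of the 10 libraries of Kcne2, Kcnj13 and Kcnh6 beside the sum of choroid plexus markers (left) and of Kcng4, Kcnip1 and Kcnh8 beside the sum of habenula markers (right). Kcne2 and Kcnj13 peak in GFP 3 with the choroid plexus sum, and Kcng4 and Kcnip1 peak in Sox11 1 with the habenula sum.

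Genes for proteins that hold, anchor or tune these channels were also more often lower than higher. Of 46 partner genes listed, 44 were tested. Of these 14 fell (31.8%, against 9.36% of all genes) and 1 rose (2.27%, against 9.65%), and the median log2 fold change was -0.16, against -0.01 for all genes. The families of axonal adhesion and scaffold proteins on that list, found with or beside Kcna channels, were mixed. Of the secreted Lgi proteins Lgi2 (-0.33) and Lgi3 (-0.47) fell, Lgi4 rose (0.24), and Lgi1 was not called (0.22). Of their Adam receptors Adam22 (-0.27) and Adam23 (-0.29) fell and Adam11 was not called (-0.22). Cntnap1 (-0.54) and Cntnap2 (-0.49) fell, and Cntn2, the adhesion partner of Cntnap2, was not called (-0.07). Of the Dlg scaffolds Dlg1 fell (-0.38), while Dlg2 (0.20) and Dlg4 (-0.03) were not called. Cntnap1, which organizes the border of the node of Ranvier, was at 13386, 12891, 14525, 16842 and 16551 normalized counts in GFP and 10511, 10144, 10820.4, 10195 and 9012 in Sox11 libraries. The groups did not overlap (limma adjusted p = 0.00115). Akap5, an anchor of Kcnq channels (-0.46), Rgs7, which speeds the closing of G protein-gated channels (-0.26), and the calmodulin gene Calm2 (-0.24) also fell. So did Vapa, an anchor of Kcnb channels (-0.20), Crbn, which binds Kcnma1 (-0.21), and Abcc8. The Kcnd partners Dpp6 and Dpp10 were not called (log2 fold changes -0.03 and -0.33).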

How the data were processed

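Poly(A) RNA from microdissected dentate gyrus of 10 mice, 5 per virus, was sequenced with a stranded kit, per the labels' protocols. Per the submitters' processing notes, the tools were R 3.3.1, DESeq2 1.12.3, featureCounts 1.5.1 (Subread), STAR 2.5.2a, cutadapt 1.9.1 and bcl2fastq 1.8.4, on GRCm38. How strand and multiply mapped reads were handled is not given in the sources used here. In one table the authors deposited one normalized count (a signal scaled for depth) for each gene and mouse, and 100% of values were whole multiples of the value of 1 read within 0.01, so reads could be recovered. Columns were assigned to groups only, since their numbers differ from those in the sample titles.

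Of 48526 identifiers 48144 had a symbol, from GENCODE M21. The 17007 genes whose mean reached 10 normalized counts were tested on log2(normalized count + 1), which understates changes of low genes, by limma 3.58.1 (trend, robust) in R 4.3.3 with Benjamini-Hochberg adjustment and a threshold of 0.05. Intervals are at 95%. The potassium channel genes, the partner and marker lists and the tests were chosen with earlier results of these data known, so no list was tested. Named were all called members, the most abundant and the lowest-p member of each subfamily, members whose call depends on 1 library and those that passed the filter through 1 library. Others named were chosen after their values were seen. Values of 4 members and 1 partner gene are not reported here, but the counts include them. The 12 genes under the filter and 5 antisense Kcn transcripts were left out. Alternatives were other pseudocounts, filters, scalings, weights and thresholds, limma-voom, DESeq2 1.42.0 and edgeR 4.0.16 on recovered reads, and each library left out. The test was tried on simulated counts. Python 3.11.15 was used with numpy 2.4.6, pandas 2.3.3 and matplotlib 3.10.9.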

Additional observations from a re-analysis of the deposited data

Results flagged for a closer look

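In 164 groups of 5 libraries (82 genes, 2 groups), the highest or lowest library stood apart from the others by Dixon's test (gap over range above 0.71) in 15, where chance gives about 1 in 20 groups, or 8.2. Below, 14 of them are given. Of the 15, 4 came from GFP 1, 4 from Sox11 1 and 3 from GFP 3.

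In GFP 3, Kcne2 was at 2533 normalized counts (other GFP libraries 1.02 to 11.0), Kcnj13 at 2723 (3.05 to 251) and Kcnh6 at 283 (67.1 to 91.5). In GFP 1, Kcng4 was at 783 (others 264 to 357), Kcnh8 at 80.2 (12.5 to 19.8), Kcnj12 at 366 (136 to 198) and Kcnk3 at 514 (344 to 392). In Sox11 1, Kcng4 was at 1966 (other Sox11 libraries 268 to 359), Kcnh8 at 80.8 (26.6 to 38.1), Kcnip1 at 1273 (398 to 595) and Kcnma1 at 5903 (4146 to 4567). Of these genes only Kcnma1 was called.

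In other libraries, Kcnk4 was high in Sox11 3 at 264 (others 212 to 222). Kcnip3 was low in Sox11 3 at 3925 (4418 to 4605) and Kcnq1 low in GFP 5 at 12.2 (19.7 to 21.9).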

How the results depend on the processing

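With all libraries 3 members were higher and 17 lower. DESeq2 gave 5 higher, a threshold of 0.1 gave 6 and a threshold of 0.01 gave 1 higher and 9 lower, with 1537 genes called in place of 3234. Leaving out 1 library at a time gave 3 to 5 higher members (5 without GFP 6 or Sox11 2), 11 to 24 lower (11 without GFP 5 or GFP 6, 24 without GFP 3) and 2487 to 3285 genes. Column numbers 1 to 3 alone gave 1 higher, 5 lower and 969 genes, and numbers 4 to 7 alone gave 5 higher, 18 lower and 2598 genes. The first set kept 6 of the 20 calls and the second 16. The 20 called members kept their sign in both sets. Of the 20 calls, edgeR kept 18, DESeq2 20 and limma-voom 19, and 14 were kept without any 1 library. Column numbers 1, 3 and 6 occur in both groups, and same-numbered libraries' deviations correlated at 0.19, 0.07 and 0.41, so a shared number was not taken as a pairing. The fit with that replicate block (6 libraries, limma) called 0 higher and 0 lower members and 44 genes. At an unadjusted p under 0.05 it had 3 and 20 members, with no share of all genes computed at that p. The same libraries without the block gave 1, 2 and 599. No single member reversed a call, and over the alternatives the members' median ran from -0.17 (column numbers 4 to 7 alone) to -0.09 (column numbers 1 to 3 alone).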
